A study of Mus musculus with 22 samples.

Results

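The cytosolic ribosomal protein genes were followed through mouse mammary tumours and normal mammary glands. A gene was included when a probe set of the arrays had a symbol beginning with Rpl or Rps and a digit as its only symbol, or was that of Rplp0, Rplp1, Rplp2 or Rpsa. S6 kinase genes, pseudogenes named as such and mitochondrial ribosomal proteins were left out. The rule found 45 genes among the 15964 genes read by a probe set with 1 symbol, and each was read by its brightest probe set of the 71 available. Of the 45, 19 encode large subunit proteins, 19 encode small subunit proteins, and the other 7 are the paralogs Rpl3l, Rpl7l1, Rpl10l, Rpl39l, Rps4l and Rps27l with Rps19bp1. Rps19bp1 encodes a protein that binds Rps19 and is no part of the ribosome, and the RefSeq table lists Rps4l as a transcribed pseudogene. All 45 matched that table by gene identifier. Rplp1 and other ribosomal protein genes that the rule did not find are not analysed here.

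Total RNA was labelled with biotin and read on the Affymetrix MG-U74v2 mouse set, whose 3 chip types A, B and C carry different probe sets. The groups were 2 RNA samples of Her2/Neu-induced mammary tumours labelled PEA3-null, 3 of Her2/Neu-induced tumours labelled wild type for PEA3, and 3 of normal mammary glands of the FVB strain. Both tumour groups carry the Her2/Neu transgene for the receptor ErbB2, and its promoter, the strain of the tumour mice and the ages are not given in the sources used here. PEA3 is an ETS-family transcription factor encoded by Etv4. The tumour RNA is labelled as pooled, the normal samples are titled as pools, and Sca-1 sorting is noted for all groups. Chips A and B were run for all 8 samples, and chip C for 6 of them, PEA3-null sample 1, wild-type samples 1 and 2 and the 3 normal samples, which makes 22 arrays. Replicates may be repeat preparations of the same material, so the p-values measure the spread between these preparations.

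Each ribosome joins a large and a small subunit, and each subunit is ribosomal RNA bound by many proteins that nearly every cell makes in matched amounts. The large subunit forms peptide bonds and carries the acidic stalk that recruits elongation factors, and the small subunit reads the message. Messages of ribosomal proteins begin with a pyrimidine tract, the terminal oligopyrimidine (TOP) motif, which couples their translation to growth signalling through mTOR. A few proteins have paralogs made in particular tissues, such as Rpl3l in skeletal muscle and heart and Rpl10l and Rpl39l in testis. Dividing cells are known to make more ribosomes than resting ones, and the epithelium of a resting mammary gland lies within fat.

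Promoters of the members are shown because the genes are read together in what follows and because PEA3 belongs to a family whose proteins bind GGAA cores. RefSeq promoter windows of build GRCm38.p6, from 250 bases before to 50 after the annotated start, were found for 38 of the 45 members. Where a gene has several listed windows, a match in any of them counts, and the stretches printed below come from the first listed. The ETS-type core CGGAAG, searched on both strands, was found for 25 of the 38 members (65.8%), against 18.8% of all 27025 genes with a window and 23.5% of the 17492 protein-coding ones. The letters AAGATGGC, the core of the YY1 motif, also searched on both strands, stood in 6 of 38 (15.8%), against 3.19% of all genes. An unbroken run of at least 8 C or T on the transcript strand within 50 bases of the start stood in 28 of 38 (73.7%), against 39.3% of all genes. TATAAA on the transcript strand stood in 3 of 38 (7.89%), against 9.77%. CGGAAG and AAGATGGC can share the letters AAG, and a C or T run can take in part of the reverse complement of either. A match describes the letters in the window and says nothing about binding. Printed 5′ to 3′ are the 100 bases before and 20 after the annotated start of 7 members, chosen after their values were seen. They are members with large differences between tumour and normal gland (Rpl13a, Rps7, Rps10, Rpsa), members with small ones (Rps3a1, Rps4x) and the muscle paralog (Rpl3l), and capitals mark CGGAAG or its reverse complement.
Rpl13a: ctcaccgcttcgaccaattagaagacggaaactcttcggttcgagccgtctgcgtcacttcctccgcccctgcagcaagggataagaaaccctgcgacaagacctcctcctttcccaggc
Rps7: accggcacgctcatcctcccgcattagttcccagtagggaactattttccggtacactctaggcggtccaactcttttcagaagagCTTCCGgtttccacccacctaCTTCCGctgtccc
Rps10: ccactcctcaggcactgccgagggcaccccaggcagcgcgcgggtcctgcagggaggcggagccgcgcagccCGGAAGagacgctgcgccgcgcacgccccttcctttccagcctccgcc
Rpsa: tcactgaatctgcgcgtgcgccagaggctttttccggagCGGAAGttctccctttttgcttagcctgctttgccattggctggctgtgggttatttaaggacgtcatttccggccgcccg
Rps3a1: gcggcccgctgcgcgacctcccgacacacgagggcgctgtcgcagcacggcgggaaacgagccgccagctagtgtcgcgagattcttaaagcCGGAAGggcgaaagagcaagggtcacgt
Rps4x: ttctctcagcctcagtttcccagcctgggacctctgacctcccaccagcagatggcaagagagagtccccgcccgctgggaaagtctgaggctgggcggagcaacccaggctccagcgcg
Rpl3l: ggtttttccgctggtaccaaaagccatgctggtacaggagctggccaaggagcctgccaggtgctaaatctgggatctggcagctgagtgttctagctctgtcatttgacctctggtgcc
These stretches lie at chr7:45128726-45128845 on the minus strand (Rpl13a), chr12:28635934-28636053 minus (Rps7), chr17:27635225-27635344 minus (Rps10), chr9:120127666-120127785 plus (Rpsa), chr3:86142649-86142768 minus (Rps3a1), chrX:102189372-102189491 minus (Rps4x) and chr17:24727726-24727845 plus (Rpl3l). Rps7 carries 2 of the cores, and Rps10, Rpsa and Rps3a1 carry 1 each. The printed stretches of Rpl13a, Rps4x and Rpl3l hold no CGGAAG on either strand, and neither do their whole windows. Other letters around GGAA were not searched or marked, and these stretches do hold GGAA or its reverse complement.

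The genotype label was set against Etv4 before the groups were compared. The Etv4 probe set that read higher in tumours than in normal glands gave 507 and 273 in the PEA3-null samples, 415, 356 and 357 in the wild-type tumours and 115, 177 and 152 in the normal glands. Its log2 difference between PEA3-null and wild-type tumours was -0.01 (limma adjusted p = 0.998). The other Etv4 set gave 465 and 725 in the PEA3-null samples, 917, 363 and 944 in the wild-type tumours and 934, 612 and 832 in the normal glands, and its genotype difference of -0.22 did not pass (limma adjusted p = 0.875). In both sets the genotypes overlapped. Where the deletion lies and where the probes bind are not given here, so a probe set beyond the deletion would check nothing, and the groups are called by their labels. Several measures differed between tumour and normal arrays beside the genes described here. The ratio of the 3' to the 5' GAPDH control set, which rises when RNA is degraded or copied short, was 0.91 to 1.11 on PEA3-null arrays, 1.01 to 1.25 on wild-type arrays and 2.58 to 6.08 on normal arrays. The actin ratio was 1.14 to 1.26, 1.15 to 1.66 and 1.28 to 2.14 in the same groups, which overlap. On chip A the 3' control set for small subunit ribosomal RNA read 2790 to 7535 on PEA3-null arrays, 5349 to 14745 on wild-type arrays and 603 to 955 on normal arrays. No scan day held both tumour and normal arrays, whatever the chip type, and the effect of day cannot be told apart from that of tissue. The 5 tumour arrays of chip A shared a day, and on chip B the PEA3-null arrays differed from the wild-type arrays in day and lot. The chip A wash records of normal glands 1 and 2 read as aborted.

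Tissue make-up differed too. Summed over the 18 skeletal muscle markers of chip A (of 20 listed), signals were 3489 and 8287 in the PEA3-null samples, 3128 to 4517 in wild-type tumours and 260403 to 274705 in normal glands. Fat markers (14 of 18) summed to 14161 and 34733 in PEA3-null tumours, 21804 to 24119 in wild-type tumours and 140491 to 160360 in normal glands. Luminal epithelial markers (14 of 15) summed to 42959 and 46995, to 39648 to 45986, and to 9903 to 11735 in the same order of groups. Over all chip types 6 of 10 tested luminal markers rose in PEA3-null tumours and 8 of 14 in wild-type tumours, and Foxa1 and Krt19 fell in both. Of all tested probe sets 12.3% rose and 12.5% fell in PEA3-null tumours, and 10.5% rose and 10.4% fell in wild-type tumours. Sums over fibroblast (13 of 14), lymphocyte (15 of 18) and endothelial markers (10 of 11) were at most 10026, 5844 and 2822 in tumours and at least 82993, 10205 and 6947 in normal glands, and the 4 erythroid markers (of 7) overlapped between groups. No marker list summed to 0 in any group. Fewer cells of a type and less RNA per cell cannot be told apart in these bulk samples. The part of tissue make-up, of RNA quality and of scan day in the results below was not tested.

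Signals are linear array intensities scaled so that each array has a 2% trimmed mean of 500, and differences are of log2(signal + 32), which understates the change of dim genes. A probe set was tested when it reached 150 on at least 2 arrays of its chip type, and a call is a limma p adjusted over all tested probe sets under 0.05. Of the 45 members 41 were tested, 29 of them on chips A and B and 12 on chip C. The other 4, Rpl32, Rpl35a, Rpl39 and Rps15, did not reach the floor on a second array in any comparison, with their highest readings at 156, 338, 275 and 277. Signals of different probe sets are not set against each other, since each set binds with its own strength.

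The comparison of tumours with normal glands shows how ribosomal protein messages stood in Her2/Neu tumours. Most members with strong signals read higher in tumours of both genotypes. Of the 41 members tested, 22 rose in wild-type tumours, 1 fell and 18 did not pass, while 10.5% of all 28138 tested probe sets rose and 10.4% fell. Their median log2 difference was 0.79, against 0.04 over all tested probe sets. In PEA3-null tumours 21 of 29 rose, 0 fell and 8 did not pass, while 12.3% of all 19214 tested probe sets rose and 12.5% fell. The median was 1.01, against 0.08. These comparisons share the normal samples. By the samples themselves, 28 of 41 members were higher in every wild-type tumour than in every normal gland (21.8% of all tested probe sets were), and 2 of 41 were lower in every one (20.1%). For PEA3-null tumours 23 of 29 were higher without overlap (28.7%) and 0 were lower (24.7%).

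The size of this shift depends on how arrays are scaled. With cyclic loess, which evens out differences that follow signal strength, the medians were 0.41 for wild-type and 0.40 for PEA3-null tumours, with 18 rises and 2 falls of 41 and 14 rises of 29. Quantile normalization gave 0.65 and 0.71. Rps3a1 and Rps4x turned negative under both of these scalings and Rpl41, Rpl6 and Rps28 under loess, in both tumour groups, and Rps14 turned negative under median scaling in wild-type tumours. Without normal glands 1 and 2, left out after seeing the data, 15 members passed for wild-type tumours (14 higher, 1 lower) and 14 for PEA3-null tumours. The shares of all tested probe sets called, given above, are for trimmed-mean scaling with all samples. No such share was taken for loess or without these glands, so those counts stand without one. Of the rises called with the trimmed mean, 17 in wild-type tumours and 14 in PEA3-null tumours also passed under loess. Those of Rpl13a, Rps7 and Rps10 were among the rises that passed under trimmed-mean, quantile, median and loess scaling in both tumour groups.

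**Figure D1:**
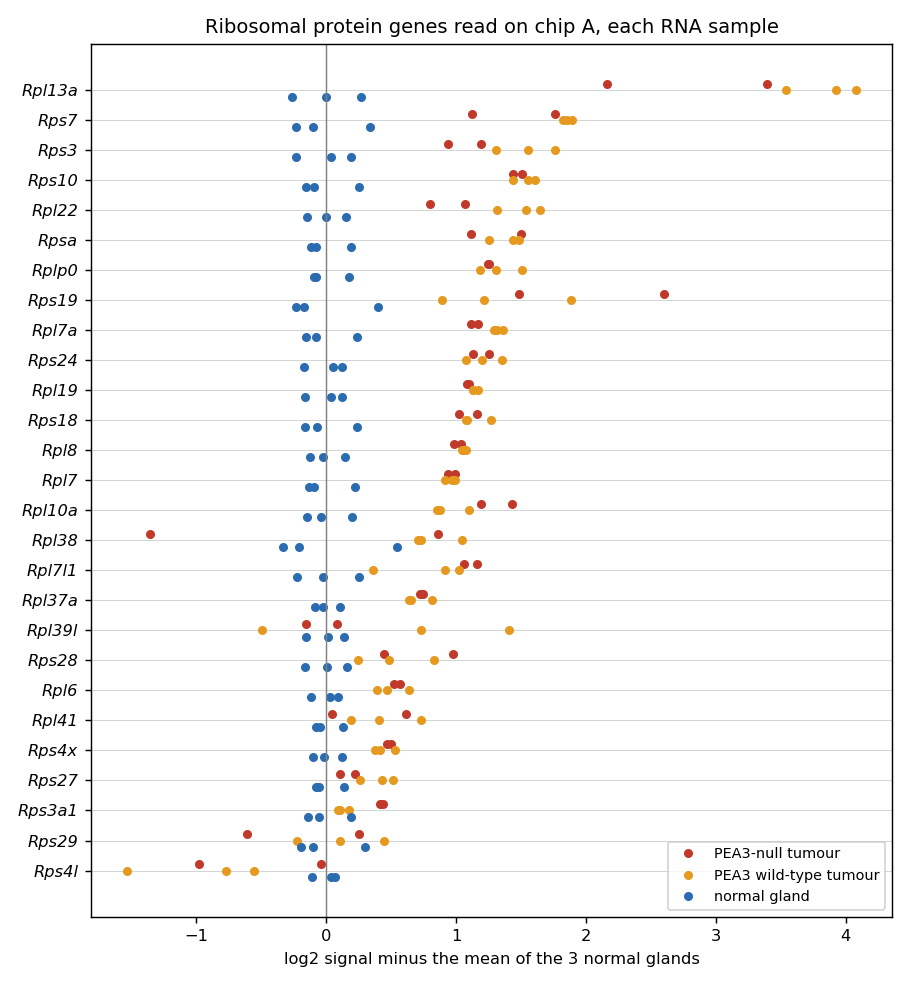
Log2 signal of the 27 tested chip A members in each RNA sample, minus the mean of the 3 normal glands (x axis); each row is a gene and each point an RNA sample, coloured by group. Most tumour points lie right of all normal points, by about 1 for many genes, and the rows of Rps3a1, Rps29, Rps4l and Rpl39l show groups that overlap or lie to the left.

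The shift is also seen sample by sample. On chip A the median member stood 1.04 and 0.98 above the normal mean on the log2 scale in the PEA3-null samples, 1.02, 1.08 and 1.04 above it in the wild-type samples, and at 0.14, -0.12 and -0.02 in the normal glands. The median over all 8783 tested probe sets of chip A lay between 0.00 and 0.12 in every sample. Taken as a share of the summed chip A signal, the chip A members made up 6.05% and 5.89% in the PEA3-null samples, 6.44%, 5.83% and 6.04% in the wild-type samples and 3.81%, 3.16% and 3.38% in the normal glands. All 5 tumour samples lay above all 3 normal glands in both measures. Over all samples of their chip type, the signals of Rps3a1 and Rps27 (8 samples of chip A) and Rps14 (6 of chip C) varied least among tested members, with SDs of log2 signal of 0.20, 0.21 and 0.24. Those of Rpl3l (6 of chip C), Rpl13a (8 of chip A) and Rpl37 (6 of chip C) varied most, at 3.19, 1.87 and 1.30. The spread among replicates of chip A was smaller over members than over all tested probe sets. The median SD of log2 signal over members was 0.10 in PEA3-null tumours, 0.14 in wild-type tumours and 0.17 in normal glands, against 0.32, 0.32 and 0.20 over all tested probe sets. Over members with a mean log2 signal above 12 it was 0.05, 0.11 and 0.17. Other probe sets of like brightness were not taken for comparison, so a trait of these genes cannot be told apart from brightness.

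Among large subunit proteins, 10 of 13 rose in PEA3-null tumours and 11 of 16 in wild-type tumours, with 0 falls in either. Of all tested probe sets 12.3% rose and 12.5% fell in PEA3-null tumours, and 10.5% rose and 10.4% fell in wild-type tumours. Rpl13a, also known in human cells as part of a complex that silences inflammatory messages, differed most. It read 5232 and 2208 in PEA3-null tumours, 8446, 5804 and 7567 in wild-type tumours and 572, 385 and 468 in normal glands. Every tumour sample lay far above the glands, and both PEA3-null samples lay below all wild-type ones. The log2 difference from normal was 2.78 in PEA3-null tumours (SE 0.31, limma adjusted p = 6.17e-05) and 3.85 in wild-type tumours (SE 0.28, limma adjusted p = 1.78e-06).

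Rplp0, which anchors the stalk and is often used as a reference gene, read 53607 and 54001 in PEA3-null tumours, 64486, 51574 and 56183 in wild-type tumours and 25562, 21377 and 21229 in normal glands. The tumour genotypes overlapped and no tumour reached down to a gland. Its differences from normal were 1.25 (SE 0.17) in PEA3-null and 1.34 (SE 0.15) in wild-type tumours, with limma adjusted p = 0.000243 and 5.98e-05. Its partner in the stalk, Rplp2, is read on chip C. It gave 54021 on the PEA3-null array, 27402 and 47297 in wild-type tumours and 22880, 18486 and 24584 in normal glands, and its wild-type difference of 0.72 did not pass (limma adjusted p = 0.0656), though it passed under quantile normalization and loess (0.044 and 0.0466).

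Rpl19, another common reference gene, had narrow groups. It read 35038 and 35400 in PEA3-null tumours, 36191, 37217 and 36227 in wild-type tumours and 18015, 14788 and 16961 in normal glands, which put both tumour groups about 1.1 above normal (1.09 ± 0.15 SE and 1.14 ± 0.13 SE). Rpl7a, Rpl7 and Rpl8 rose by 1.14, 0.96 and 1.01 in PEA3-null tumours and by 1.32, 0.96 and 1.06 in wild-type tumours. Under loess Rpl7 lost both calls (0.35 and 0.32, limma adjusted p = 0.068 and 0.0651). Rpl10a, a protein of the mobile stalk at the exit side, read 18981 and 16141 in PEA3-null tumours, 12723, 15097 and 12919 in wild-type tumours and 8052, 6324 and 6818 in normal glands. It was 1.31 higher than normal in PEA3-null tumours (limma adjusted p = 0.000116) and 0.94 higher in wild-type tumours (limma adjusted p = 0.00053).

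Rpl22, which mice need for T cell development, was also higher. It read 1120 and 923 in PEA3-null tumours, 1334, 1688 and 1558 in wild-type tumours and 517, 462 and 577 in normal glands, with differences from normal of 0.93 (limma adjusted p = 0.00423) and 1.50 (limma adjusted p = 7.14e-05). A dimmer Rpl22 set on chip A did not pass in PEA3-null (1.27, limma adjusted p = 0.0546) or wild-type tumours (0.58, limma adjusted p = 0.354). Nor did a chip C set in wild-type tumours (1.44, limma adjusted p = 0.217). Rpl37, on chip C, read 464 on the PEA3-null array, 508 and 427 in wild-type tumours and 64.1, 78.8 and 54.2 in normal glands, a wild-type difference of 2.36 (SE 0.56, limma adjusted p = 0.0156). That call was lost in 4 of 23 alternatives, among them the leaving out of wild-type sample 1 or 2 (limma adjusted p = 0.092 and 0.073). Every normal reading of Rpl37 lay below the signal floor, so the gene entered the test through its tumour arrays alone. The size of its rise, which is among those counted above, rests on those dim normal readings. Rpl37a and Rpl6 rose by 0.73 and 0.55 in PEA3-null tumours and by 0.70 and 0.50 in wild-type tumours, and both genes lost both calls under loess (Rpl37a 0.31 and 0.25, Rpl6 -0.05 and -0.11). Rpl6 lost them under quantile normalization as well (0.35 and 0.28), and its PEA3-null call under median scaling (0.48, limma adjusted p = 0.0549).

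The large subunit members that did not pass were mostly those with dim or very strong probe sets. Rpl41, which encodes the shortest ribosomal protein, read 58850 and 87696 in PEA3-null tumours, 94719, 75674 and 65316 in wild-type tumours and 62448, 54064 and 55348 in normal glands. Its differences were 0.33 and 0.44 and turned to -0.54 and -0.44 under loess. Rpl13, whose probe set is on chip C, read 270 on the PEA3-null array, 397 and 319 in wild-type tumours and 845, 904 and 299 in normal glands. Its groups overlapped and its difference of -0.74 did not pass. Rpl38, which mouse embryos need to translate Hox messages, read 207 and 19.3 in PEA3-null tumours, 187, 183 and 240 in wild-type tumours and 81.7, 160 and 72.4 in normal glands, and its PEA3-null samples stood on either side of the glands. Rpl27 on chip B was as scattered, at 502 and 326 in PEA3-null tumours, 172, 319 and 46.8 in wild-type tumours and 71.1, 121 and 238 in normal glands.

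**Figure D2:**
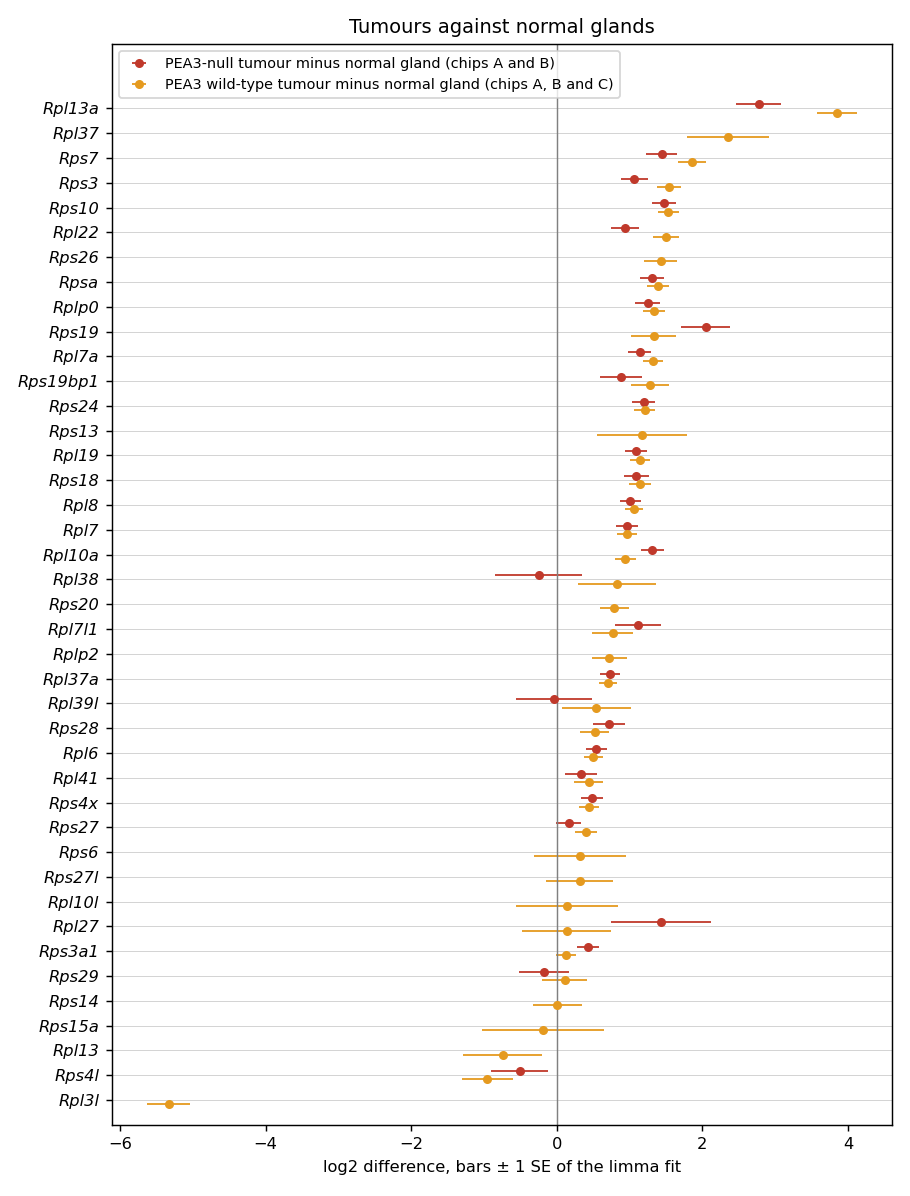
Log2 difference of each tested member between tumours and normal glands (x axis), with bars of 1 SE from the limma fit; rows are ordered by the wild-type difference, and members on chip C have a point for wild-type tumours alone. Most points lie right of 0, Rpl13a lies furthest right and Rpl3l, at -5.33, furthest left.

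Among small subunit proteins, 9 of 12 rose in PEA3-null tumours and 10 of 18 in wild-type tumours, with 0 falls in either. The shares of all tested probe sets that rose and fell were 12.3% and 12.5% in PEA3-null tumours. In wild-type tumours they were 10.5% and 10.4%. Rps10, a protein of the subunit head, read 42634 and 40699 in PEA3-null tumours, 45796, 40785 and 44129 in wild-type tumours and 17868, 13478 and 14030 in normal glands. It was 1.47 and 1.53 above normal (limma adjusted p = 6.93e-05 and 1.91e-05). The genotypes overlapped, and the gap to the glands was wider than either group.

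Rps7, which can also bind the p53 regulator Mdm2, read 29030 and 18615 in PEA3-null tumours, 30280, 30946 and 31761 in wild-type tumours and 10780, 7263 and 7965 in normal glands. Its differences from normal were 1.44 (SE 0.21) and 1.85 (SE 0.19), and 0.84 and 1.23 under loess. Rps3, which lines the channel where messages enter, read 31757 and 26606 in PEA3-null tumours, 46981, 34398 and 40834 in wild-type tumours and 15837, 11791 and 14227 in normal glands, with differences of 1.07 and 1.54. The PEA3-null call of Rps3 was lost under loess (0.40, limma adjusted p = 0.093). In both genes the 2 PEA3-null samples lay below all wild-type tumours.

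Rps19, the gene most often mutated in human Diamond-Blackfan anaemia, was spread widely within the tumour groups. It read 26549 and 12206 in PEA3-null tumours, 8087, 10135 and 16147 in wild-type tumours and 5746, 3686 and 3862 in normal glands. It rose by 2.04 in PEA3-null tumours (SE 0.34, limma adjusted p = 0.00105) and by 1.33 in wild-type tumours (SE 0.31, limma adjusted p = 0.00843). The wild-type call was lost under loess (0.85, limma adjusted p = 0.0609) and without normal glands 1 and 2 (limma adjusted p = 0.0565). Rps24 and Rps26, 2 more genes of that anaemia, also read higher. Rps24 rose by 1.19 and 1.21 in PEA3-null and wild-type tumours, and Rps26, read on chip C, rose by 1.43 in wild-type tumours, at 12887 and 12815 against 5805, 3728 and 4996 in normal glands. The PEA3-null array read 10794 for Rps26.

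Rpsa, which also acts as a laminin receptor, read 9405 and 7204 in PEA3-null tumours, 7941, 8993 and 9303 in wild-type tumours and 3130, 3051 and 3785 in normal glands, 1.31 and 1.39 above normal. Rps18 rose by 1.09 and 1.14, its PEA3-null call being lost under loess (0.34, limma adjusted p = 0.0891). Rps20, on chip C, read 155359 on the PEA3-null array, 108578 and 159822 in wild-type tumours and 83355, 64528 and 81745 in normal glands, a wild-type rise of 0.79 (limma adjusted p = 0.0218) that was lost under quantile normalization (0.30, limma adjusted p = 0.283).

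Other small subunit genes had small differences, or ones that depended on the scaling or the probe set. Rps3a1 read 29897 and 30386 in PEA3-null tumours, 25387, 23870 and 24114 in wild-type tumours and 25663, 20378 and 21624 in normal glands. Its differences from normal were 0.42 (limma adjusted p = 0.0641) and 0.12 (limma adjusted p = 0.599), and under loess the wild-type value was -0.56 and passed (limma adjusted p = 0.00332). Rps4x, encoded on the X chromosome, rose by 0.48 and 0.44 with limma adjusted p = 0.0354 and 0.0373, and turned to -0.23 and -0.29 under loess. Under median scaling it did not pass in either group (limma adjusted p = 0.1 and 0.0829). Rps28 was 0.71 higher in PEA3-null tumours (limma adjusted p = 0.0337) and differed by 0.52 in wild-type tumours (limma adjusted p = 0.0857), with -0.06 and -0.27 under loess. A nearly as bright set of Rps28 rose by 0.71 and 0.76 (limma adjusted p = 0.0128 and 0.00494), and a dimmer set fell by 0.80 in PEA3-null tumours (limma adjusted p = 0.0455) and differed by -0.46 in wild-type tumours. Rps27 (0.16 and 0.40) and Rps29 (-0.18 and 0.11) did not pass in either group. Rps6, the protein that S6 kinases phosphorylate, was read by a dim set on chip C, at 230 on the PEA3-null array, 158 and 198 in wild-type tumours and 75.8, 153 and 207 in normal glands, which overlap. Rps13, Rps14 and Rps15a, also on chip C, did not pass for wild-type tumours (1.17, 0.01 and -0.19).

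**Figure D3:**
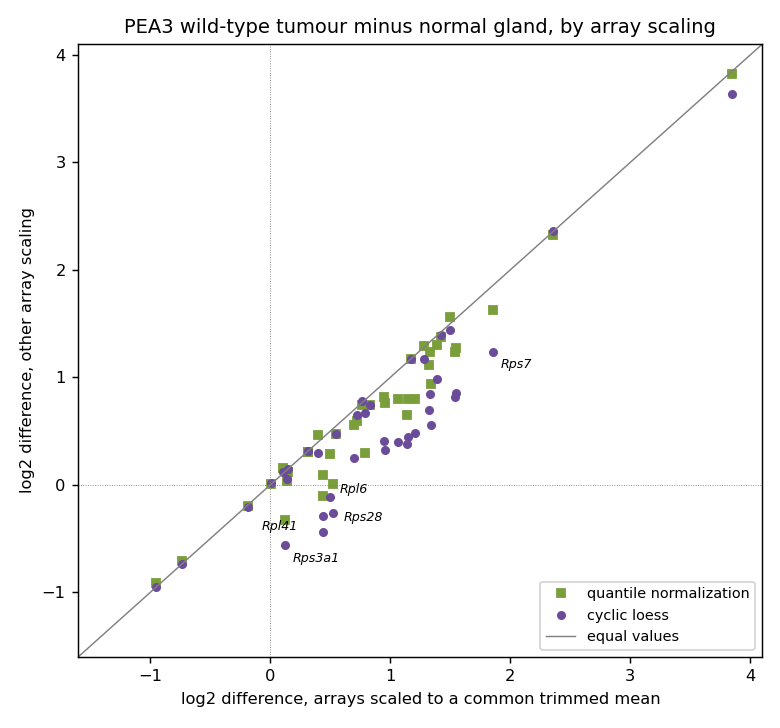
Log2 difference of wild-type tumours from normal glands for 40 tested members under quantile normalization (squares) and cyclic loess (circles), against the difference with arrays scaled to a common trimmed mean (x axis). Rpl3l, at -5.33 and -5.32, lies outside the axes; many points fall below the line of equal values, and under loess 5 members cross to the negative side.

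Splitting the members by brightness shows where the rises lie. The 22 members with a mean log2 signal above 12 (a bound put, after seeing the values, in the gap between 11.1 and 12.6) held 18 of the 22 rises in wild-type tumours, with a median of 1.10. On chips A and B, 17 of 19 such members rose in PEA3-null tumours, with a median of 1.09. Of the 19 dimmer tested members 4 rose and 1 fell in wild-type tumours, with a median of 0.32, and 4 of 10 rose in PEA3-null tumours, with a median of 0.52. Over all tested probe sets 10.5% rose and 10.4% fell in wild-type tumours, and 12.3% rose and 12.5% fell in PEA3-null tumours. No share was taken over all probe sets above 12, and the mean that splits the members includes the tumour arrays.

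Of the 7 genes set apart from the subunits, 1 (Rps19bp1) rose and 1 (Rpl3l) fell in wild-type tumours, and 2 of 4 (Rpl7l1 and Rps19bp1) rose in PEA3-null tumours. Of all tested probe sets 10.5% rose and 10.4% fell in wild-type tumours, and 12.3% rose and 12.5% fell in PEA3-null tumours. Rpl3l, which takes the place of Rpl3 in ribosomes of striated muscle, was the 1 member that fell. Its brighter set on chip C read 53.7 on the PEA3-null array, 151 and 203 in wild-type tumours and 7641, 8719 and 8626 in normal glands. All glands lay far above all tumours, and the wild-type difference was -5.33 (SE 0.29, limma adjusted p = 1.94e-06). Its dimmer set read 835 on the PEA3-null array, 131 and 55.5 in wild-type tumours and 1981, 1526 and 1909 in normal glands (wild-type difference -3.93, limma adjusted p = 0.000115). Both are named as sets shared by a gene family. Skeletal muscle markers stand beside this result: 17 of the 18 tested fell in wild-type tumours, with a median log2 difference of -5.96, and the part of muscle tissue in the Rpl3l reading was not tested.

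Eef1a2, the elongation factor isoform of muscle and neurons, was lower in the same samples, at 258 and 260 in PEA3-null tumours, 367, 262 and 366 in wild-type tumours and 4739, 4311 and 5031 in normal glands. The differences were -4.02 (limma adjusted p = 1.58e-07) and -3.71 (limma adjusted p = 8.33e-08). Its widespread isoform Eef1a1 read 57496 and 70690 in PEA3-null tumours, 72292, 59780 and 55765 in wild-type tumours and 48947, 42175 and 45771 in normal glands. Neither of its differences (0.48 and 0.45) passed, and both turned negative under loess (-0.34 and -0.39).

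**Figure D4:**
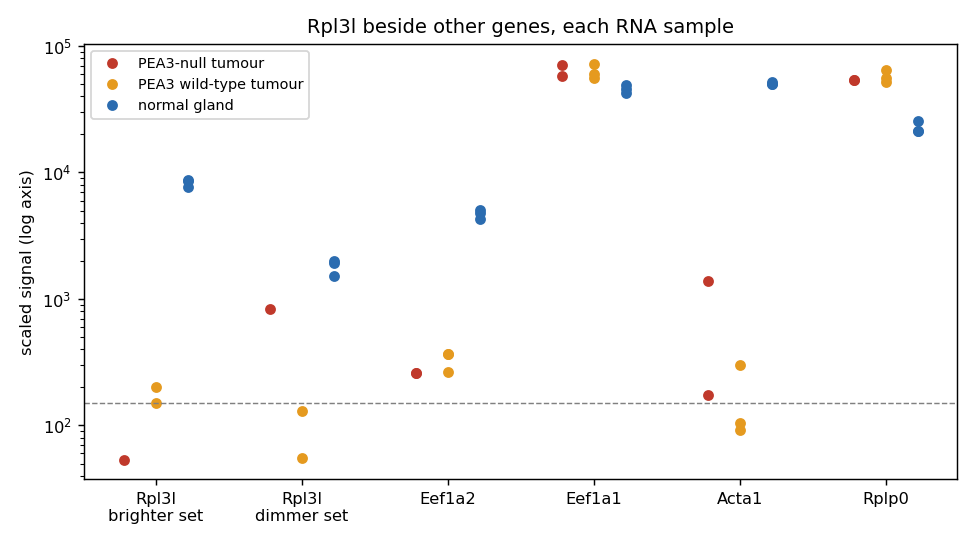
Scaled signal (log axis) of the 2 Rpl3l probe sets, Eef1a2, Eef1a1, Acta1 (skeletal actin) and Rplp0 in each RNA sample, with PEA3-null, wild-type and normal samples from left to right and a dashed line at the floor of 150. For Rpl3l, Eef1a2 and Acta1 the normal glands lie above all tumours, and for Eef1a1 and Rplp0 below; levels are to be compared within a probe set, not between sets.

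Rpl7l1, a paralog of Rpl7, read 409 and 442 in PEA3-null tumours, 398, 366 and 240 in wild-type tumours and 176, 149 and 220 in normal glands. It was 1.11 higher in PEA3-null tumours (SE 0.32, limma adjusted p = 0.0235), a call lost in 6 of 25 alternatives, among them the leaving out of either PEA3-null sample (limma adjusted p = 0.0651 and 0.0836) or of normal gland 1 or 2 (0.0645 and 0.0842). Rps19bp1 read 2605 and 1682 in PEA3-null tumours, 2347, 3465 and 2647 in wild-type tumours and 1393, 789 and 1289 in normal glands, and rose by 0.88 and 1.28, the PEA3-null call being lost under median scaling (0.75, limma adjusted p = 0.0869). Rps4l, a copy of Rps4x, read 361 and 173 in PEA3-null tumours, 108, 205 and 243 in wild-type tumours and 383, 344 and 393 in normal glands, and its differences of -0.51 and -0.95 did not pass. Rpl10l and Rpl39l, the testis paralogs of Rpl10 and Rpl39 (0.15 and 0.55), and Rps27l, the p53-induced paralog of Rps27 (0.31), did not pass in wild-type tumours.

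Setting PEA3-null beside wild-type tumours asks whether these messages differ with the PEA3 label. Of the 29 members tested on chips A and B, 0 passed in either direction under limma, while 0.12% of all 19214 tested probe sets rose and 0.0729% fell. At an unadjusted p under 0.05 there were 4 members, against 10.5% of all tested probe sets, and the lowest adjusted p was 0.246. The median log2 difference was -0.05, against 0.01 over all tested probe sets, with 11 members above 0 and 18 below. In the samples 4 members lay higher in PEA3-null tumours without overlap (11.3% of all tested probe sets) and 8 lay lower (11.6%).

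The intervals give the precision that 2 PEA3-null and 3 wild-type samples allow. Among the 19 members with a mean log2 signal above 12 the 95% intervals together ran from -0.89 to 1.46. Rplp0 differed by -0.09, with a 95% interval from -0.46 to 0.28, and Rpl7 by 0.00, from -0.33 to 0.34. For Rpl19 the interval was -0.38 to 0.27, for Rps10 -0.43 to 0.30 and for Rpl37a -0.26 to 0.33. Among the 10 dimmer members the intervals ran from -2.40 to 2.78.

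The largest positive difference was that of Rpl27, at 1.29 (95% interval -0.19 to 2.78, limma adjusted p = 0.537). Rps19 followed with 0.71 (-0.04 to 1.46, adjusted p = 0.5), Rps4l with 0.44 (-0.41 to 1.29) and Rpl10a with 0.37 (0.02 to 0.72, adjusted p = 0.439). The largest negative differences were those of Rpl38, at -1.08 (-2.40 to 0.24), Rpl13a, at -1.07 (-1.75 to -0.40, limma adjusted p = 0.246), Rpl39l, at -0.58 (-1.74 to 0.57), and Rpl22, at -0.57 (-0.99 to -0.14, adjusted p = 0.314). Another chip A set of Rpl22 differed by 0.69, with both PEA3-null samples above all wild-type ones (limma adjusted p = 0.607). Rpl13a, Rpl22, Rpl10a and Rps3 are the 4 members with an unadjusted p under 0.05. Without PEA3-null sample 1 Rpl13a passed (-1.69, limma adjusted p = 0.0171), where the remaining PEA3-null sample takes its spread from the other groups. The sign of Rpl38 rests on PEA3-null sample 2 (0.034 without it), and that of Rps4l on PEA3-null sample 1 (-0.027 without it).

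**Figure D5:**
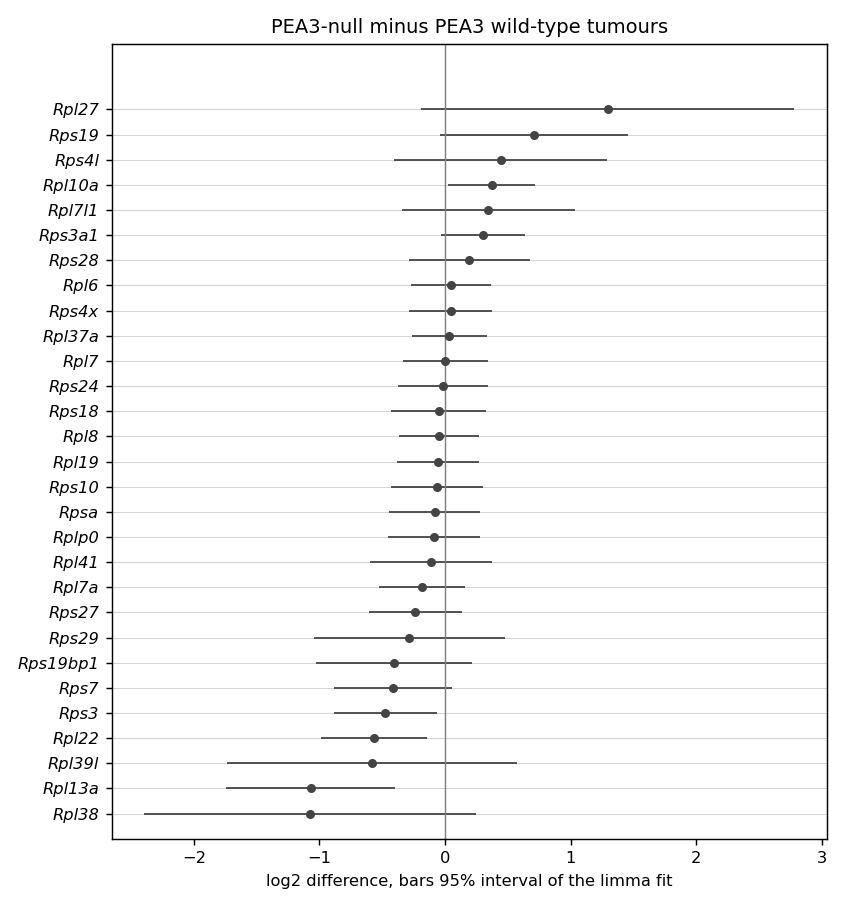
Log2 difference of PEA3-null from wild-type tumours for the 29 members tested on chips A and B (x axis), with 95% intervals from the limma fit. The points of most bright members lie within 0.5 of 0, and the widest intervals belong to the dim members Rpl27 and Rpl38.

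On chip C, with a lone PEA3-null array, members are given by value. The 12 members there read as stated above for Rpl3l, Rpl13, Rpl37, Rplp2, Rps6, Rps20 and Rps26. Rps15a read 363 on the PEA3-null array and 40 and 22.8 in wild-type tumours, and Rpl10l read 72.9, against 546 and 172. Rps27l read 819, against 368 and 635 in wild-type tumours, Rps13 958, against 854 and 825, and Rps14 863, against 1084 and 906. These differences have no replicate check on the PEA3-null side, and that array was scanned on another day than the wild-type arrays.

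The promoter motifs can be set beside these differences. Among members with CGGAAG in any listed window the median difference between PEA3-null and wild-type tumours was -0.10 over 16 genes, and among those without it 0.04 over 9. Between wild-type tumours and normal glands the medians were 0.83 over 23 genes with the core and 0.85 over 12 without, and between PEA3-null tumours and normal glands 0.81 over 16 and 1.25 over 9. Members with a C or T run near the start had a wild-type median of 0.83 (25 genes) and those without it 0.97 (10 genes). In PEA3-null tumours against normal glands the order was the other way, 1.09 (17 genes) with the run and 0.97 (8 genes) without. Between PEA3-null and wild-type tumours the medians were -0.06 with the run and -0.02 without, over the same numbers of genes. These are descriptions of overlapping sets of genes and carry no test.

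Probe sets of the same gene did not always read alike. For 12 members over 1 probe set was tested, and in wild-type tumours against normal glands 8 of them kept the same sign in all sets and 4 (Rplp0, Rps4l, Rps28 and Rps4x) did not. Rplp0 ranged most, from -0.43 to 3.03 over 3 sets, and Rps3 ranged from 0.37 to 2.02. A further 52 probe sets list a ribosomal protein beside other symbols and were not counted as members. Of 48 tested, 25 rose and 1 fell in wild-type tumours, with a median of 0.64. Among 41 of them on chips A and B, 26 rose and 0 fell in PEA3-null tumours (median 0.77), and 0 differed between the genotypes. Of all tested probe sets 10.5% rose and 10.4% fell in wild-type tumours, and 12.3% rose and 12.5% fell in PEA3-null tumours. Between the genotypes 0.12% were higher and 0.0729% lower in PEA3-null tumours. Like both sets of Rpl3l, those read for Rpl41, Rps20, Rps26 and Rps28 are named as sets shared by a gene family. Ribosomal protein genes have many processed copies in the mouse genome, and a probe set that reads copies of a gene cannot be told apart here from a set that does not.

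Other genes of translation were counted in the same way, beside 12.3% rises and 12.5% falls over all tested probe sets in PEA3-null tumours and 10.5% and 10.4% in wild-type tumours. Mitochondrial ribosomal proteins, which make up a separate ribosome, were taken by symbol alone (Mrpl or Mrps and a digit). Of the 70 genes so tested, 19 rose and 3 fell in wild-type tumours, with a median of 0.25, and 15 rose and 2 fell of 64 in PEA3-null tumours (median 0.29). Mrpl54, read at 636 and 590 in PEA3-null tumours, 486, 551 and 547 in wild-type tumours and 62, 86.8 and 119 in normal glands, rose most, by 2.44 and 2.23. Its normal readings all lay below the signal floor, so Mrpl54 entered the test through its tumour arrays alone. Mrps12, a protein of the decoding centre, rose by 1.47 and 1.97, and Mrps36, in the list by its symbol alone, fell by 1.16 and 0.88.

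Translation factors with TOP messages had medians of 0.55 in PEA3-null tumours (4 of 15 rose, 0 fell) and 0.44 in wild-type tumours (3 of 16 rose, 0 fell). Under loess these medians were 0.04 and 0.05, with 3 of 15 rises and 0 falls in PEA3-null tumours and 2 rises and 3 falls of 16 in wild-type tumours. No share over all tested probe sets was taken under loess. Eef1d, a subunit of the exchange factor that reloads eEF1A with GTP, rose by 0.92 and 0.80, and Eif3k, a subunit of initiation factor eIF3, by 0.98 and 1.13. Other initiation factors split, with 3 rises and 4 falls among 18 in PEA3-null tumours and among 20 in wild-type tumours. Eif4ebp1, an inhibitor of cap-dependent initiation that mTOR switches off, fell by 1.26 and 1.50.

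Among ribosome biogenesis genes 6 of 39 rose and 2 fell in PEA3-null tumours (median 0.08), and 8 of 47 rose and 3 fell in wild-type tumours (median 0.14). Polr1d, a subunit shared by RNA polymerases I and III, rose by 1.84 and 1.79, Eif6, which keeps the subunits apart until the large one is ready, by 1.41 and 1.36, and Bysl, a factor of small subunit assembly, fell by 1.13 and 1.41. Among Myc family and partner genes, regulators of ribosome production, 1 of 4, Mycl, fell in PEA3-null tumours (-1.71) and 0 of 6 passed in wild-type tumours. Mycl differed there by -1.32 (limma adjusted p = 0.0601) and passed as lower under loess, median scaling and quantile normalization (0.0399, 0.0444 and 0.0488). Of 4 S6 kinase genes 1, Rps6ka3, fell in wild-type tumours (-1.34) and 0 of 3 passed in PEA3-null tumours. Fau, which encodes a small subunit protein under another name, did not pass in PEA3-null (0.82) or wild-type tumours (0.91). In none of these lists of ribosomal and translation genes did a member pass between PEA3-null and wild-type tumours.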

How the data were processed

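Per the submitters' processing notes the authors made the deposited linear signal intensities with MAS5, with no version or settings given. On every array their 2% trimmed mean lay between 1500.28 and 1501.06. Deposited instrument files (unit other: text settings) served for scan dates, lots and wash records. A genome build for the probes is not given in the sources used here. Gene names came from the platform annotation and RefSeq.

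Signals were divided so that the 2% trimmed mean became 500, and 32 was added before log2. Control probe sets, 66 on each chip type, were left out. The test was limma 3.58.1 (R 4.3.3; lmFit, eBayes with a trend, two-sided) on each chip type with all 3 groups. Benjamini-Hochberg adjustment ran over 19214 probe sets of chips A and B wherever PEA3-null tumours entered, because chip C had 1 such array, and over 28138 of chips A, B and C for the wild-type comparison with normal glands. The code was tested on simulated data, and precision is limited by the number of arrays.

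The members and gene lists were chosen with earlier results of these data known. Genes were named by rule: up to 12 passing members per comparison by size, or where fewer than 4 passed the 4 largest differences each way, and up to 4 of each gene list. Others were named after their values were seen. Alternatives covered scaling, the added constant, the filter, the variance model, chip types, the choice of probe set, replicate numbers as a block, scan day and each RNA sample left out.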

Additional observations from a re-analysis of the deposited data

How the results depend on the processing

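Array scaling moved the tumour medians most. In wild-type tumours set against normal glands the median was 0.65 with quantile normalization, 0.41 with cyclic loess, 0.94 with a filter at 300 and 0.96 on chip A alone. For PEA3-null tumours it was 0.71 with quantile normalization, 0.40 with loess and 0.86 without normal glands 1 and 2, which were left out after seeing the data. There 15 members passed for wild-type tumours. Leaving out each RNA sample in turn gave medians of 0.71 to 0.97 for wild-type tumours and 0.95 to 1.08 for PEA3-null tumours. Between the genotypes 0 to 1 members passed when a sample was left out, the 1 being Rpl13a, and 0 passed under the other alternatives run. The difference of Rps4l then ran from -0.027 to 0.912 and that of Rpl38 from -2.19 to 0.034. With the replicate block 20 members passed for wild-type tumours (median 0.83), 16 for PEA3-null tumours (median 1.00) and 0 between the genotypes. Rpl37 (limma adjusted p = 0.0521) and Rpl7l1 (0.0731) lost their calls there. For none of these alternatives was a share of all tested probe sets taken. Deviations from the group means had r of -0.11 to 0.07 over 7 pairs of samples with the same number. Over 14 pairs with different numbers r was -0.07 to 0.11. Deviations within a group cancel out, so these pairs are not independent and cannot settle whether the numbers pair samples. The numbers were not taken to pair them. Scan day could be entered as a random block on chip B alone. The other causes were not tested, and dim probe sets limit Rpl27, Rpl38 and the paralogs.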
